A study of Mus musculus with 6 samples.

Results

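The proteasome is the barrel-shaped protease complex that degrades proteins tagged with ubiquitin. Its 20S core is built of outer rings of alpha subunits and inner rings of beta subunits that carry the active sites, and a 19S cap, made of a base that unfolds substrates and a lid that removes ubiquitin, feeds it. Other activators can take the place of the cap, and in immune cells, microglia among them, inducible beta subunits can replace the constitutive catalytic ones. The genes described here are those whose symbol matches Psm, a letter from a to g, a number and at most 1 further letter, without the inducible subunits Psmb8 and Psmb9. The rule found 46 of the 11881 genes in the table. They are 8 genes of the alpha ring, 8 of the beta ring, 9 of the 19S base, 8 of the lid, 5 of activators, 1 inhibitor, 3 assembly chaperones of the 19S base and 4 of the 20S core. The set is wider than the constitutive proteasome: Psmb10 encodes an inducible beta subunit, Psma8 a germ-cell form of an alpha subunit, and the chaperones are not part of the finished complex.

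Microglia, the macrophages of brain tissue, were sorted as CD11b-positive cells with low CD45 from the hippocampus of male mice at postnatal days 17 to 21, per the labels. Of the mice, 3 were labelled Mll5+/-, heterozygous for a loss of Mll5 (now Kmt2e, a gene of the MLL family), and 3 were labelled WT. Each library carries its own animal number and was taken as 1 mouse. The labels give no treatment, no strain and no description of the Mll5 allele. The libraries held 21075570 to 29730400 counts. Levels are in CPM, counts scaled to a common library size after TMM normalization, and log2 fold changes are Mll5+/- minus WT. At this depth, 3 counts correspond to 0.104 to 0.142 CPM. Kmt2e itself had 648, 298 and 513 CPM in Mll5+/- and 480, 378 and 688 CPM in WT libraries (log2 fold change -0.08, SE 0.314, edgeR unadjusted p = 0.799), so the whole-gene count did not check the labels. Of 10 microglial identity genes, all had counts in every library, with summed levels of 7360 to 8334 CPM in Mll5+/- and 8957 to 13209 CPM in WT libraries. These sums did not overlap, and P2ry12, at 1087 to 1232 CPM in Mll5+/- and 1366 to 5499 CPM in WT libraries, made up most of the gap.

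All 46 genes passed the low-count filter, and together they took 0.203% to 0.230% of the counts in each Mll5+/- library and 0.218% to 0.222% in each WT library. Their summed levels were 2195, 1999 and 2289 CPM in Mll5+/- and 2219, 2176 and 2274 CPM in WT libraries, so the summed levels overlapped. None of the 46 genes passed an adjusted p of 0.05 in edgeR's quasi-likelihood test (0 of 46), where 0 of 10832 tested genes passed (0%). The count under an unadjusted p of 0.05 was also 0 of 46 in edgeR, against 2.88% of all tested genes (1.36% higher and 1.52% lower in Mll5+/-), and it was 0 of 46 in DESeq2 (4.87% of all genes with a p; adjusted, 0 of 46 beside 0.260%) and 0 of 46 in limma-voom (3.55%). The smallest unadjusted p among the members was 0.125 (edgeR), for Psmd4. The median log2 fold change of the members was 0.06, beside 0.02 over all tested genes, and 28 of the 46 were positive, beside 51.8% of all tested genes.

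**Figure D1:**
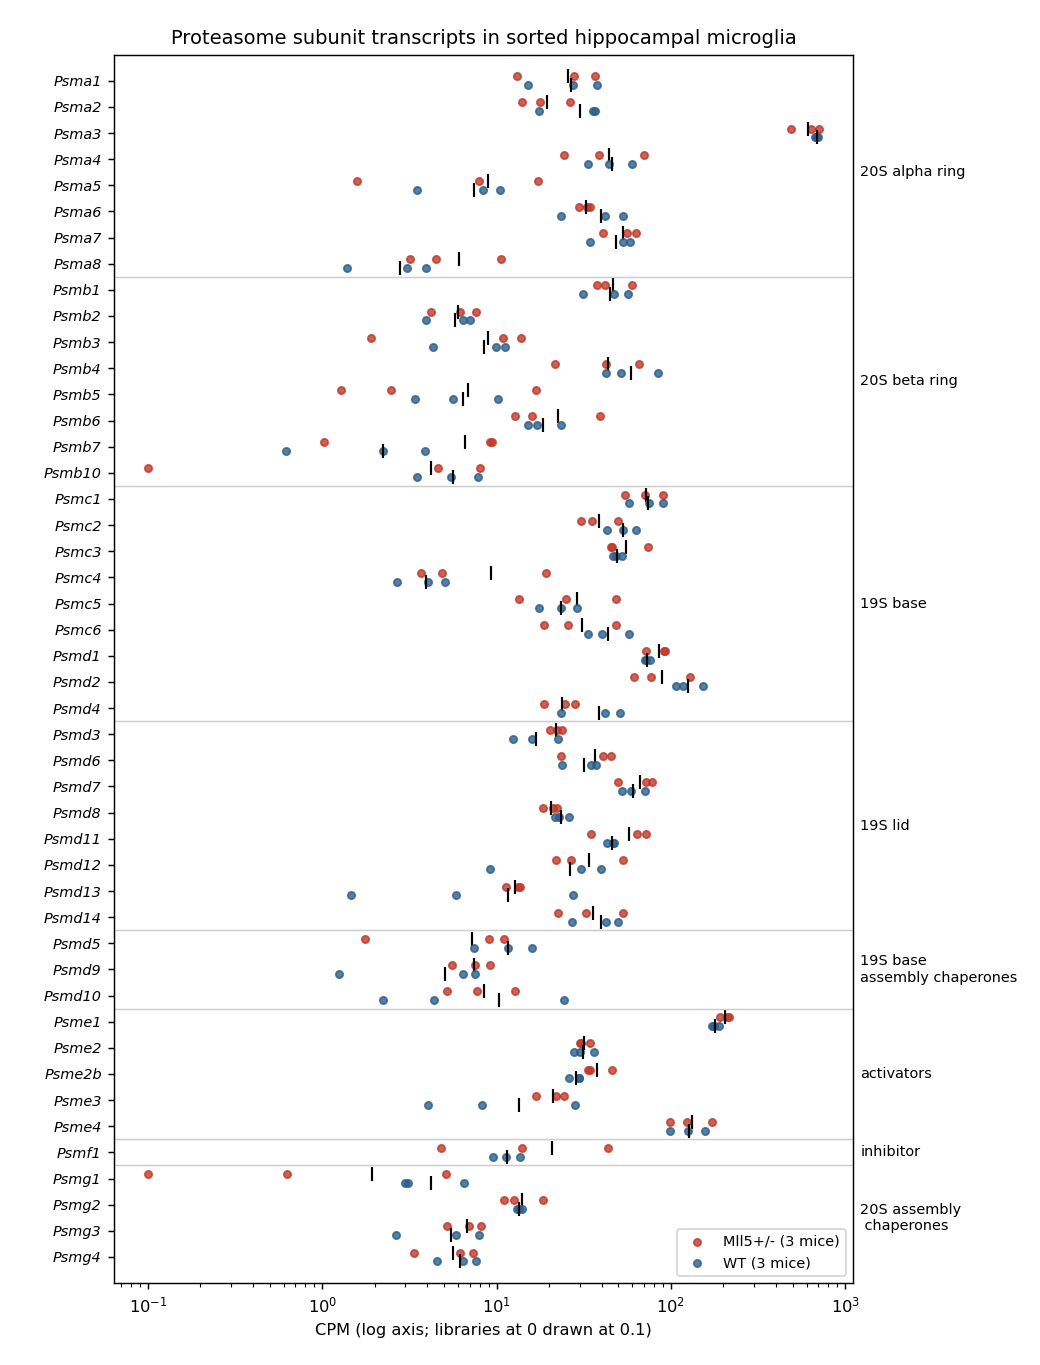
CPM of each of the 46 genes on a log axis, in 3 Mll5+/- (red, upper row of each gene) and 3 WT libraries (blue, lower row); black ticks are group means. Libraries at 0 are drawn at 0.1. Levels are highest for Psma3 and lowest for Psmg1 and Psmb7, and the genotypes overlap for all but Psme1 and Psme2b.

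A miss at this threshold does not show equal levels. The 95% interval of the log2 fold change lay wholly between -1 and 1, for 10 of the 46 genes, which is 21.7%, beside 19.5% of all tested genes. For the other members the interval reached beyond at least one of these bounds, and for some, such as Psma1 and Psmb5, beyond both. In such bulk libraries, fewer cells of a type and less RNA per cell cannot be told apart.

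**Figure D2:**
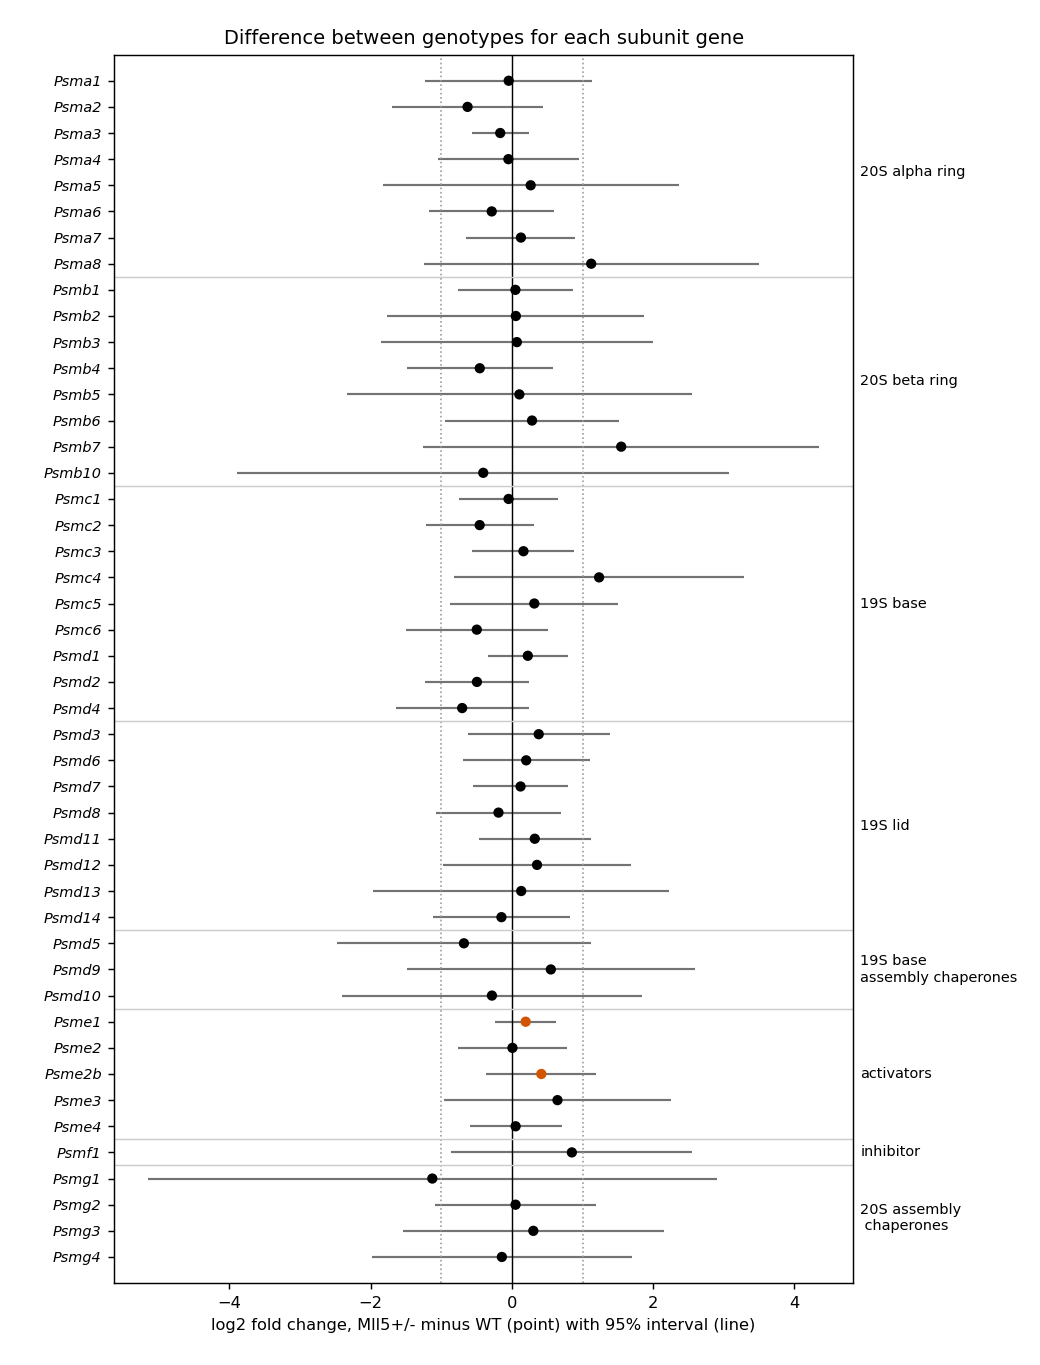
Log2 fold change of each gene, Mll5+/- minus WT, with its 95% interval from edgeR's fit; dotted lines mark -1 and 1. Every interval includes 0, and the orange points, Psme1 and Psme2b, are the genes whose libraries did not overlap.

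The outer alpha ring gates the entrance of the core. Psma3, the alpha7 subunit, was the most abundant member, at 633, 488 and 709 CPM in Mll5+/- and 679, 699 and 673 CPM in WT libraries. It supplied 24.4% to 31.0% of the members' summed level in Mll5+/- and 29.6% to 32.1% in WT libraries. Per kilobase of its principal transcript in the GENCODE M21 annotation, its level was 214 CPM in Mll5+/- and 240 CPM in WT libraries, while the median of the 46 genes was 17.8 CPM per kilobase in Mll5+/- and 16.8 CPM per kilobase in WT. Part of this count may not be its own, since 22.02% of the 50-base stretches of its transcript also occur in transcripts of other annotated genes, mostly of a processed pseudogene, and a noncoding transcript is annotated over part of it on the opposite strand. Their part in the level was not tested. Psma3 gave -0.17 between genotypes on the log2 scale, with an SE of 0.179 and an edgeR unadjusted p = 0.381.

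Among the other alpha genes, Psma2, the alpha2 subunit, had the smallest p. It had 14.0, 17.7 and 26.5 CPM in Mll5+/- and 35.7, 17.4 and 36.7 CPM in WT libraries. WT replicate 2 lay among the Mll5+/- values (log2 fold change -0.63, SE 0.470, edgeR unadjusted p = 0.215). Psma7, the alpha4 subunit, had 63.0, 55.7 and 40.5 CPM in Mll5+/- and 53.2, 58.0 and 34.4 CPM in WT libraries. Its germ-cell counterpart Psma8 was low, with 4.50, 3.20 and 10.54 CPM in Mll5+/- and 1.38, 3.93 and 3.05 CPM in WT libraries, which overlap. The alpha5 gene Psma5 varied most within a genotype: it had 1.58, 17.3 and 7.94 CPM in Mll5+/- and 3.51, 10.4 and 8.40 CPM in WT libraries. The remaining alpha genes, Psma1, Psma4 and Psma6, had mean levels of 25.8 to 44.2 CPM in Mll5+/- and 26.7 to 45.8 CPM in WT libraries, and their genotypes overlapped. Of the 8 alpha genes, 3 had positive and 5 negative log2 fold changes (median -0.05), and 0 passed the test in edgeR.

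The beta ring holds the active sites, and most of their genes were measured at low levels with wide spreads. Psmb5, the chymotrypsin-like beta5 subunit, had 2.49, 16.9 and 1.28 CPM in Mll5+/- and 5.64, 3.39 and 10.2 CPM in WT libraries. The highest and the 2 lowest of these values were all in Mll5+/- libraries. Psmb6, the caspase-like beta1 subunit, had 15.9, 12.7 and 39.2 CPM in Mll5+/- and 15.1, 23.5 and 17.001 CPM in WT libraries. Psmb7, the trypsin-like beta2 subunit, had 1.03, 9.20 and 9.45 CPM in Mll5+/- and 2.22, 0.616 and 3.89 CPM in WT libraries. In Mll5+/- replicate 1 it stood within the WT range, and in the other two above it. Psmb10, which replaces Psmb7 in the immunoproteasome, had 4.62, 8.04 and 0 CPM in Mll5+/- and 3.47, 5.50 and 7.81 CPM in WT libraries. The library without a Psmb10 count, Mll5+/- replicate 3, had the fewest counts (21075570) and the most listed genes at 0: 1394, against 828 and 1185 in the other Mll5+/- libraries and 846 to 1084 in WT libraries. The part of this in the value was not tested.

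None of these differences exceeded the spread between mice. The log2 fold change was 0.11 for Psmb5 (SE 1.07), 0.29 for Psmb6 (SE 0.541), 1.55 for Psmb7 (SE 1.24) and -0.41 for Psmb10 (SE 1.54), with edgeR unadjusted p-values of 0.924, 0.611, 0.242 and 0.798 in that order. The sign for Psmb5 turned without Mll5+/- replicate 2 (-1.78), and that for Psmb6 without Mll5+/- replicate 3 (-0.39). Of the noncatalytic beta genes, Psmb4, the beta7 subunit, was the most abundant, at 42.3, 65.7 and 21.7 CPM in Mll5+/- and 51.9, 42.3 and 83.7 CPM in WT libraries (log2 fold change -0.45, SE 0.456, edgeR unadjusted p = 0.346). Psmb1 had 41.9, 60.1 and 37.5 CPM in Mll5+/- and 31.1, 56.6 and 47.0 CPM in WT libraries. Psmb2 had means of 6.02 CPM in Mll5+/- and 5.79 CPM in WT, and Psmb3 of 8.87 CPM in Mll5+/- and 8.44 CPM in WT. Of the 8 beta genes, 6 had positive log2 fold changes (median 0.06), and 0 passed. Their median level per kilobase of transcript, 9.62 CPM in Mll5+/- and 9.08 CPM in WT, was below that of the alpha genes, 26.3 CPM in Mll5+/- and 30.1 CPM in WT.

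Transcription of proteasome genes is known to respond to NRF1 (gene Nfe2l1), a membrane-bound factor released when proteasome activity falls, which binds antioxidant response elements. The RefSeq windows of the catalytic genes Psmb5 and Psmb6 are shown because each holds the core of this element, TGANNNNGC, before the RefSeq start site. The 100 bases before the start site (GRCm38.p6, 5' to 3' on the gene's strand, the core in capitals) are at chr14:54617996-54618095 on the minus strand for Psmb5 and at chr11:70525257-70525356 on the plus strand for Psmb6.
Psmb5: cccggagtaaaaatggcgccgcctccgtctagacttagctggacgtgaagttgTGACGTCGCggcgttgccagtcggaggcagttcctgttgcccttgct
Psmb6: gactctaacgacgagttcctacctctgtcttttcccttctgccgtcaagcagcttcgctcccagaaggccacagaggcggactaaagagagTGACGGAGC
Searched on both strands, the core lay within the 100 bases before the start site in 8 of 41 windows of 38 member genes (19.5%), beside 15.9% of all 32851 windows of the same length. Over 250 bases before to 50 after the start site it lay in 22 of the 41 windows (53.7%), beside 41.3% of all windows. The other members holding it in the 100 bases were Psma6, Psmb3, Psmd9, Psmd12, Psme2 and Psmg4. The bases just after the RefSeq start of Psmb6 are in none of its GENCODE M21 transcripts, so its place before the start rests on the RefSeq start alone. A match of so short a core is a description only.

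Nfe2l1 had 19.7, 12.96 and 10.6 CPM in Mll5+/- and 11.8, 36.8 and 36.8 CPM in WT libraries. WT replicate 1 lay among the Mll5+/- values (log2 fold change -0.98, SE 0.551, edgeR unadjusted p = 0.109). Nfe2l2, which encodes the related factor NRF2, had 414, 285 and 297 CPM in Mll5+/- and 406, 396 and 392.4 CPM in WT libraries (log2 fold change -0.26, SE 0.197, edgeR unadjusted p = 0.216). Of the 14 tested genes on the list of NRF1 and NRF2 regulators, 0 passed in edgeR and 1 had an unadjusted p under 0.05, beside 2.88% of all tested genes. This was Btrc, a receptor subunit of an SCF ubiquitin ligase, at 11.6, 17.1 and 14.6 CPM in Mll5+/- and 2.63, 5.31 and 4.09 CPM in WT libraries, without overlap (log2 fold change 1.84, SE 0.641, edgeR unadjusted p = 0.0187). Fbxw7, another receptor of such ligases, averaged 101 ± 37.3 CPM in Mll5+/- and 168 ± 32.1 CPM in WT libraries (SD, n = 3 each), with overlap. Ddi2, the protease that activates NRF1, had 840, 867 and 1072 CPM in Mll5+/- and 689, 771 and 717 CPM in WT libraries, without overlap (log2 fold change 0.35, SE 0.161, edgeR unadjusted p = 0.0572). Nfyc, also on the list, had 34.1, 29.0 and 31.8 CPM in Mll5+/- and 5.06, 26.5 and 21.5 CPM in WT libraries, without overlap (edgeR unadjusted p = 0.189). Of all tested genes, 9.32% did not overlap in either direction, and 4.68% did not overlap with higher values in Mll5+/-.

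The 19S base is a ring of ATPases, encoded by Psmc1 to Psmc6, with the scaffolds Psmd1 and Psmd2 and the ubiquitin receptor Psmd4. Psmd4 had 28.3, 24.6 and 18.6 CPM in Mll5+/- and 51.3, 23.5 and 41.8 CPM in WT libraries. Its lowest value was in an Mll5+/- library and its 2 highest were in WT libraries, with WT replicate 2 inside the Mll5+/- range (log2 fold change -0.70, SE 0.415, edgeR unadjusted p = 0.125). Psmd2, the most abundant base gene, had 129, 61.1 and 76.6 CPM in Mll5+/- and 117, 107 and 152 CPM in WT libraries. Mll5+/- replicate 1 lay among the WT values (log2 fold change -0.49, SE 0.323, edgeR unadjusted p = 0.161). Psmd1 was steady, with 71.8, 90.7 and 92.9 CPM in Mll5+/- and 71.5, 76.2 and 70.8 CPM in WT libraries.

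Among the ATPases, the log2 fold changes had both signs. Psmc2 and Psmc6 averaged 38.6 and 30.9 CPM in Mll5+/-, against 53.0 and 43.6 CPM in WT libraries. Psmc4 averaged 9.25 CPM in Mll5+/- and 3.93 CPM in WT libraries, and the Mll5+/- mean rested on replicate 3, at 19.2 CPM. Psmc5 averaged 29.0 CPM in Mll5+/- and 23.2 CPM in WT libraries, with its highest value, 48.4 CPM, in Mll5+/- replicate 2. Psmc1 averaged 71.6 CPM in Mll5+/- and 74.0 CPM in WT, and Psmc3 55.0 CPM in Mll5+/- and 49.1 CPM in WT. All of these genes overlapped between genotypes. Over the base, 4 of 9 log2 fold changes were positive (median -0.05), and 0 of 9 passed in edgeR.

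The lid holds the deubiquitinase Psmd14 and a set of scaffold subunits. Psmd7, the partner of Psmd14 and the most abundant lid gene, had 71.7, 49.9 and 77.4 CPM in Mll5+/- and 59.2, 70.9 and 52.7 CPM in WT libraries (log2 fold change 0.12, SE 0.299, edgeR unadjusted p = 0.691). Psmd14 had 32.4, 22.5 and 52.9 CPM in Mll5+/- and 42.4, 27.1 and 49.96 CPM in WT libraries. Psmd11, a lid scaffold, had the smallest p of the lid, with 72.3, 34.9 and 64.1 CPM in Mll5+/- and 46.7, 42.9 and 47.3 CPM in WT libraries. Mll5+/- replicate 2 was its lowest library and the other two Mll5+/- libraries were its highest (log2 fold change 0.32, SE 0.348, edgeR unadjusted p = 0.376). Psmd13 varied most, with 13.6, 11.3 and 13.2 CPM in Mll5+/- and 5.85, 1.46 and 27.5 CPM in WT libraries, so that the WT libraries held both its lowest and its highest value. Psmd3, Psmd6, Psmd8 and Psmd12 averaged 20.5 to 36.7 CPM in Mll5+/- and 16.9 to 31.9 CPM in WT libraries, all with overlap. In the lid, 6 of 8 log2 fold changes were positive (median 0.17), and 0 of 8 passed in edgeR.

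The activators were the class with the steadiest levels and held both members without overlap between genotypes. Psme1, the PA28 alpha subunit of the interferon-inducible cap, had 190.2, 216 and 208 CPM in Mll5+/- and 189.8, 171 and 176 CPM in WT libraries. The libraries were separated by 190.2 CPM in Mll5+/- replicate 1 and 189.8 CPM in WT replicate 1, and the gap closed when library sizes were scaled without the low-count filter. For Psme1 the fitted difference was 0.20 on the log2 scale, with an SE of 0.189 and an edgeR unadjusted p = 0.329. Psme2b had 34.2, 33.3 and 46.1 CPM in Mll5+/- and 29.6, 25.9 and 29.6 CPM in WT libraries (log2 fold change 0.42, SE 0.342, edgeR unadjusted p = 0.255). In all, 2 of 46 members did not overlap, both higher in Mll5+/-, where 4.68% of all tested genes did not overlap in that direction and 9.32% in either, while 0 of 46 did not overlap with lower values in Mll5+/-, beside 4.64%. The members' share is near or below that background.

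Psme2b is an intronless copy, on chromosome 11, of Psme2, the PA28 beta subunit gene on chromosome 14. The open reading frames of both GENCODE M21 transcripts are 720 bases long and differ at 5 positions (99.3% identical), and their longest identical run is 311 bases. The 80 bases with the most differences are positions 464 to 543 of either reading frame. They are shown because reads within the reading frames that cover no difference cannot be told apart (differences in capitals).
Psme2: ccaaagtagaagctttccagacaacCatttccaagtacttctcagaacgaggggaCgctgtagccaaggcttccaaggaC
Psme2b: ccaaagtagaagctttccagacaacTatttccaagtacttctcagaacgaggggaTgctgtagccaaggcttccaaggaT
Psme2 had 30.3, 34.2 and 30.01 CPM in Mll5+/- and 27.8, 36.3 and 29.98 CPM in WT libraries, with overlap (log2 fold change 0.01, SE 0.341, edgeR unadjusted p = 0.982). Counted as 1 gene, the pair had 64.5, 67.6 and 76.1 CPM in Mll5+/- and 57.4, 62.2 and 59.6 CPM in WT libraries, again without overlap (log2 fold change 0.22, SE 0.261, edgeR unadjusted p = 0.428). In the mm39 coordinates of the table, Psme2b lies wholly within the listed gene Gm12185, whose part in its counts was not tested. Psme1 and Psme2 are neighbours on chromosome 14 with 5912 bases between them.

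The other caps were also read. Psme4, the large PA200 activator, had 172, 99.2 and 124 CPM in Mll5+/- and 157, 125 and 99.0 CPM in WT libraries. Psme3, the nuclear PA28 gamma, had 24.2, 16.9 and 21.9 CPM in Mll5+/- and 28.1, 8.20 and 4.02 CPM in WT libraries, with the WT libraries at both ends. All 5 activators had positive log2 fold changes (median 0.20), and 0 of 5 passed in edgeR. Psmf1, the inhibitor PI31, had 14.0, 4.78 and 43.4 CPM in Mll5+/- and 9.53, 11.3 and 13.6 CPM in WT libraries, so that the Mll5+/- libraries held both extremes (log2 fold change 0.85, SE 0.752, edgeR unadjusted p = 0.289). Without Mll5+/- replicate 3 it was -0.31.

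Border-associated macrophages are another macrophage type of the brain. The summed level of their markers was 417, 369 and 692 CPM in Mll5+/- and 322, 328 and 265 CPM in WT libraries, over 6 of 7 markers with a count. The sums did not overlap, but no marker by itself was separated between genotypes. Mrc1 and Stab1 carried most of the sum, and Cd163, Lyve1 and Ms4a7 were each at 0 in some libraries of both genotypes. None of the 5 tested markers of that list had an unadjusted p under 0.05 in edgeR. Their part in the levels of Psme1 and Psme2b was not tested. Astrocyte markers summed to 265 to 549 CPM in Mll5+/- and 386 to 545 CPM in WT libraries (7 of 10 markers with a count). Slc1a3 carried most of this sum, and Gja1 alone of these markers did not overlap. Gja1 had 3.51, 6.71 and 1.75 CPM in Mll5+/- and 22.7, 23.2 and 28.6 CPM in WT libraries (log2 fold change -2.64, SE 0.631, edgeR unadjusted p = 0.0025, DESeq2 adjusted p = 0.0336). Of 7 tested astrocyte markers, 1 had an unadjusted p under 0.05 in edgeR (2.88% of all tested genes), and 3 had positive log2 fold changes. The part of Gja1 in the members' levels was not tested. Neuron markers summed to 10.8 to 40.0 CPM in Mll5+/- and 15.8 to 29.3 CPM in WT (3 of 10), and oligodendrocyte markers to 98.2 to 135 CPM in Mll5+/- and 140 to 185 CPM in WT (6 of 10), which do not overlap. Endothelial and mural markers summed to 16.96 to 23.4 CPM in Mll5+/- and 14.3 to 31.0 CPM in WT (5 of 8), and monocyte and neutrophil markers to 233 to 297 CPM in Mll5+/- and 205 to 263 CPM in WT (5 of 8).

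The chaperones Psmg1 to Psmg4 build the alpha ring, and Psmd5, Psmd9 and Psmd10 assemble the base. Psmg1 had 0.631, 5.13 and 0 CPM in Mll5+/- and 2.97, 3.12 and 6.52 CPM in WT libraries. The 0 in Mll5+/- replicate 3 allows up to 3 counts, or 0.142 CPM. With 2 of 3 Mll5+/- libraries below all WT libraries and the third inside the WT range, the log2 fold change was -1.13 with an SE of 1.77 (edgeR unadjusted p = 0.541). Psmg2, the partner of Psmg1, was steady at 18.4, 10.99 and 12.5 CPM in Mll5+/- and 13.003, 13.4 and 14.0 CPM in WT libraries (log2 fold change 0.05, SE 0.499, edgeR unadjusted p = 0.919). Psmg3 and Psmg4 averaged 6.74 and 5.61 CPM in Mll5+/-, against 5.46 and 6.19 CPM in WT libraries. Psmd5 had 10.97, 9.09 and 1.75 CPM in Mll5+/- and 11.7, 15.9 and 7.39 CPM in WT libraries (log2 fold change -0.68, SE 0.790, edgeR unadjusted p = 0.413). Psmd9 and Psmd10, known as gankyrin, averaged 7.42 and 8.51 CPM in Mll5+/-, against 5.06 and 10.3 CPM in WT libraries, both with overlap. Pomp, the maturation factor of the core and no member by its symbol, had 89.1, 77.6 and 74.0 CPM in Mll5+/- and 83.2, 73.6 and 89.3 CPM in WT libraries.

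The core was then set against its partners within each library. As a difference of mean log2 CPM, centred on the 6 libraries, the 16 core genes minus the 17 base and lid genes gave -0.36, 0.62 and -0.54 in Mll5+/- and -0.27, 0.25 and 0.30 in WT libraries. The 3 Mll5+/- libraries spanned the WT libraries on both sides. The means were -0.09 ± 0.62 in Mll5+/- and 0.09 ± 0.31 in WT (SD, n = 3 each), a difference of -0.19. Without Psmb10, with its count of 0 in Mll5+/- replicate 3, the values were -0.44, 0.55 and -0.21 in Mll5+/- and -0.30, 0.18 and 0.22 in WT libraries, a difference of -0.07, and with genes of at least 5 CPM in 3 libraries alone the difference was -0.32. The core minus the 5 activators gave -0.62, 0.44 and -0.51 in Mll5+/- and -0.36, 0.24 and 0.82 in WT libraries, a difference of -0.46 with SDs of 0.58 in Mll5+/- and 0.59 in WT. Of the activators, Psme3 deviated most from its 6-library mean, at 0.76, 0.24 and 0.62 in Mll5+/- and 0.97, -0.79 and -1.80 in WT libraries. In WT replicate 3 the mean deviation of the 5 activators was -0.50. The difference without Psme3 was not examined. No p is given for these values over members. The difference to the base and lid was 0.04 without Mll5+/- replicate 3, so its sign rested on that library. It stayed negative without any other single library, at -0.54 without Mll5+/- replicate 2. Mll5+/- replicate 2 had the highest core mean of all libraries, 0.48 above the 6-library average, and Mll5+/- replicates 1 and 3 were at -0.38 and -0.28. The low mean of Mll5+/- replicate 3 rested on Psmb10: over the other 15 core genes the means were -0.46, 0.41 and 0.04 in Mll5+/- and -0.20, -0.05 and 0.25 in WT libraries.

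**Figure D3:**
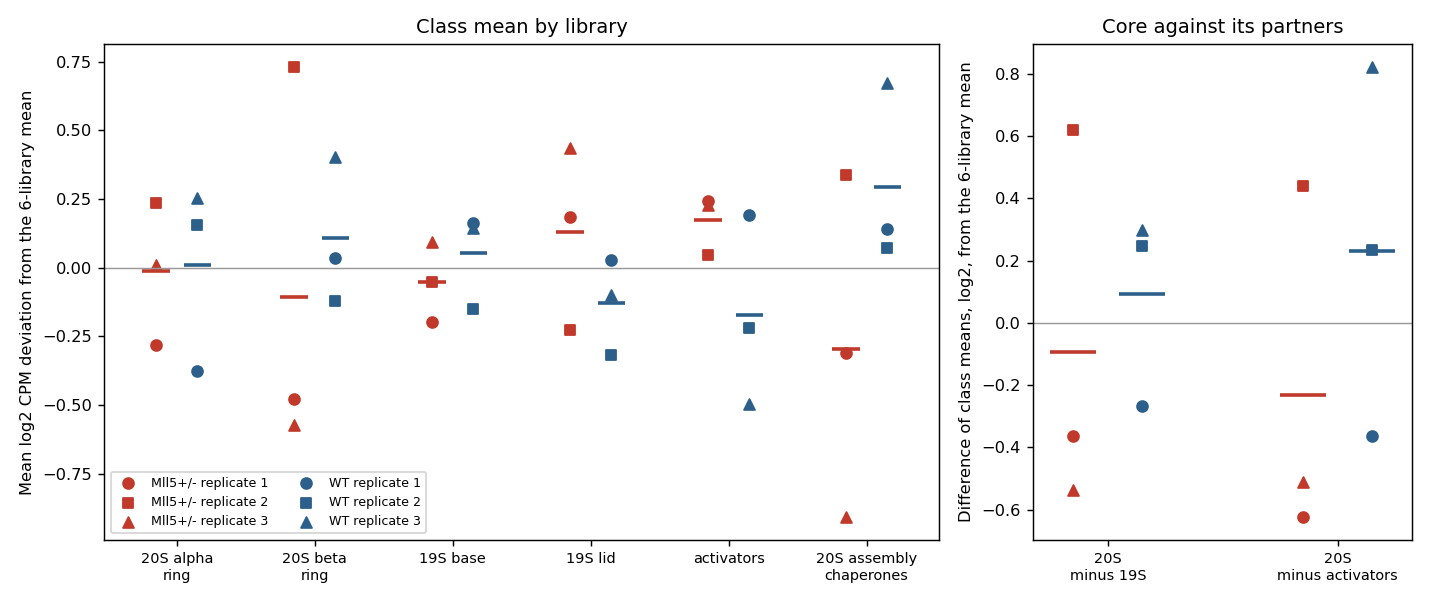
Left, mean log2 CPM deviation of each class from its 6-library mean; right, the core minus its partners on the same scale; symbols are libraries, Mll5+/- in red left of WT in blue, and short lines are group means. In the beta ring, Mll5+/- replicate 2 lies at 0.73 and Mll5+/- replicates 1 and 3 at -0.48 and -0.57, with WT libraries at -0.12 to 0.40. Without Psmb10, Mll5+/- replicate 3 lies at 0.08, inside the WT range of -0.28 to 0.24.

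Within the 19S cap, base minus lid gave -0.38, 0.18 and -0.34 in Mll5+/- and 0.14, 0.17 and 0.24 in WT libraries. Mll5+/- replicate 2 lay among the WT values and the other two Mll5+/- libraries below them. The lid genes alone stood at 0.18, -0.23 and 0.44 in Mll5+/- and at 0.03, -0.32 and -0.10 in WT libraries, which overlap.

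**Figure D4:**
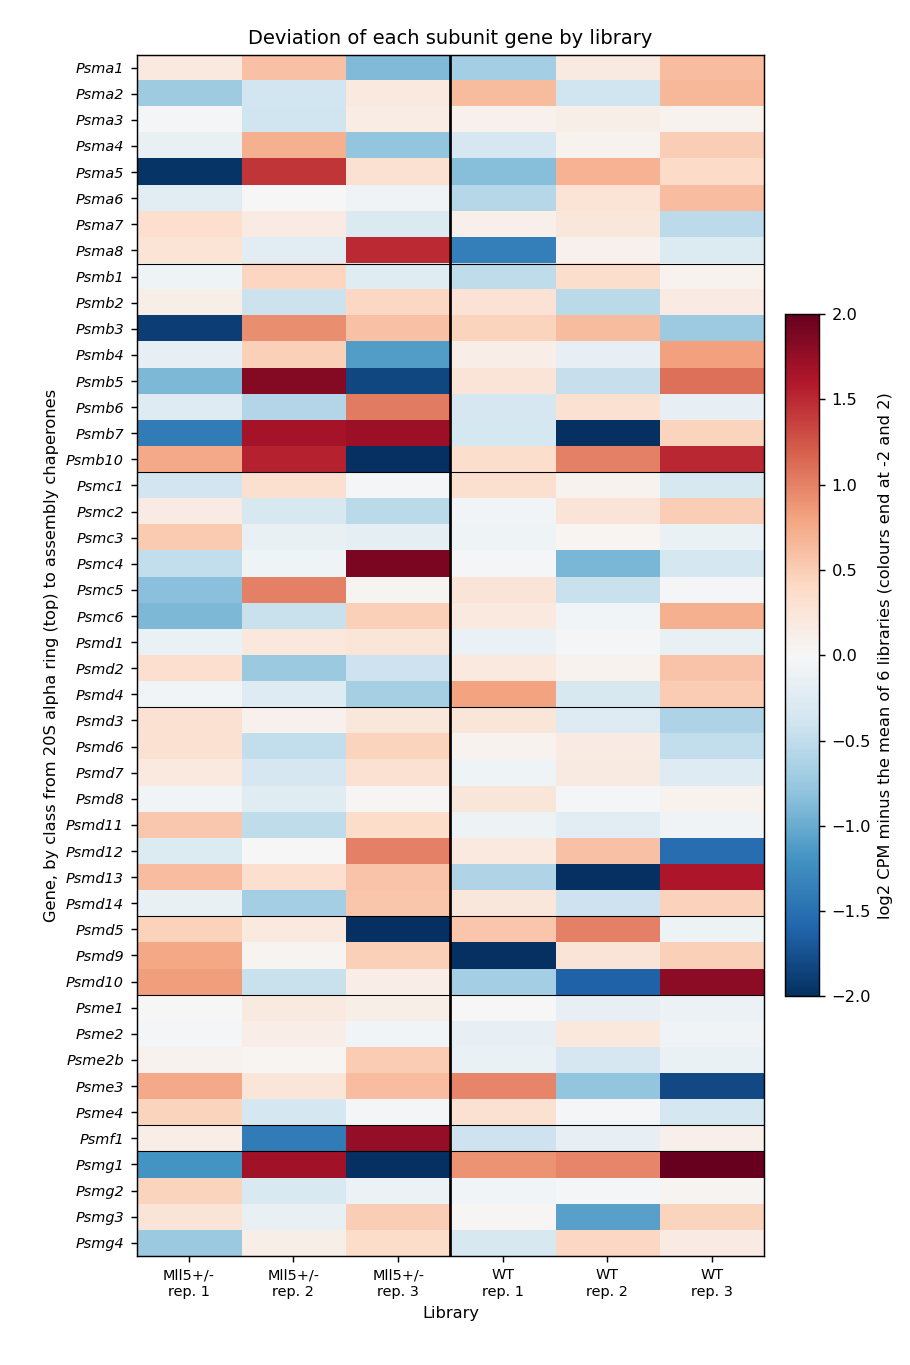
Log2 CPM of each gene minus its mean over 6 libraries, by library; Mll5+/- libraries are left of the black line, WT libraries right of it, and red is higher. The strongest colours fall on low-level genes such as Psmb10, Psmg1, Psmb7 and Psmd13, and no column is red or blue throughout.

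Members at low levels varied most between mice. The within-genotype SD of log2 CPM had a median of 0.54 over the 46 genes, beside 0.73 over all tested genes, and ran from 0.09 for Psme1 to 2.62 for Psmb10. It was above 1 for 12 of the 46, beside 37.2% of all tested genes. Of the 14 members with a mean under 10 CPM, 9 were above 1 (64.3%, beside 73.4% of all tested genes at that level). Of the 10 members from 10 to 30 CPM, 3 were (30%, beside 27.4%), and of the 22 members from 30 CPM it was 0 (0%, beside 8.49%). At 30 CPM or more the median SD was 0.38 for the members and 0.39 for all tested genes. The catalytic genes Psmb5, Psmb7 and Psmb10 were all in the lowest range, and Psmb7 had as few as 26 counts in an Mll5+/- library and 16 in a WT library.

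**Figure D5:**
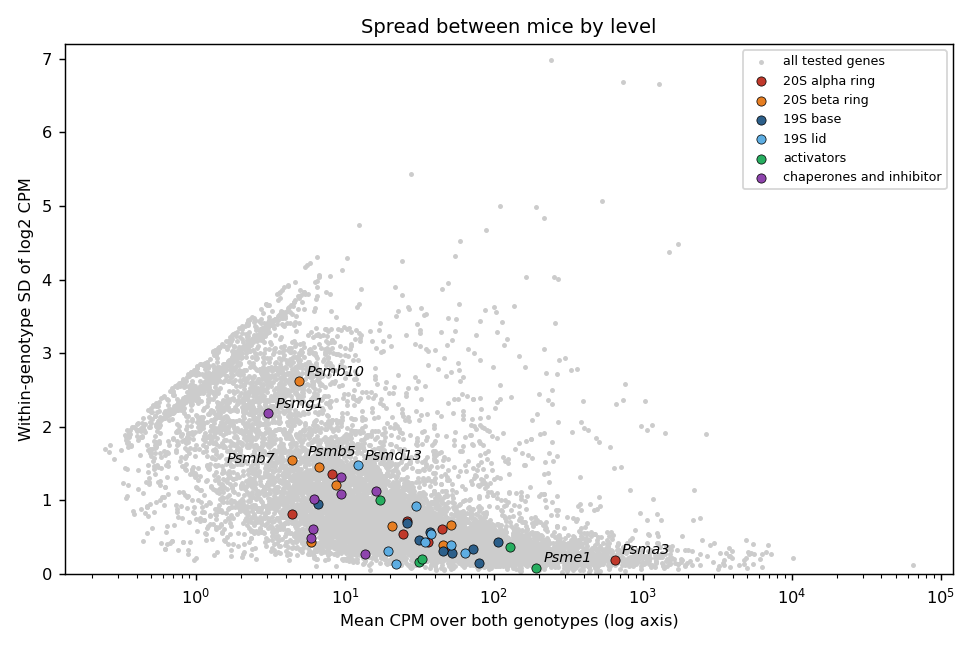
Within-genotype SD of log2 CPM against mean CPM (log axis) for all tested genes (grey) and the 46 members (colours by class). The members lie within the grey cloud. From 30 CPM none is above 1, the highest being Psmd12 at 0.92, and below 10 CPM 9 of 14 are above 1.

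Sequence copies limit several members. Of the 46 principal transcripts, 25 shared no 50-base stretch with a transcript of another annotated gene, and 12 shared over 10% of theirs. The largest shares were in Psme2b (69.3%), Psme2 (59.3%), Psmb5 (57.1%), Psmb3 (55.8%) and Psma5 (54.5%), the last 3 with processed or other pseudogenes. Of the 46 genes, 9 overlap another listed gene in the table's coordinates, among them Psmb7 with Nek6, Psmc3 with Slc39a13 and Psmd13 with Sirt3. These overlaps are of whole gene spans, introns included: 6571 of 56052 bases for Psmb7, 4579 of 12361 for Psmc3 and 342 of 16676 for Psmd13. Overlap of exons was not examined. Whether the counting used strand is not stated, so how reads within the shared stretches were assigned is unknown.

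Genes that work around the proteasome were read from 5 lists. Of 14 tested genes of other components and assembly factors, 0 passed in edgeR and 0 had an unadjusted p under 0.05 (median log2 fold change -0.26, 4 of 14 positive). The smallest p was that of Midn, which directs proteins to the proteasome without ubiquitin: it had 1.46, 1.23 and 53.2 CPM in Mll5+/- and 1.17, 0.654 and 3.71 CPM in WT libraries, so its mean rested on Mll5+/- replicate 3. Zfand5, an activator of the 26S proteasome, averaged 197 ± 9.21 CPM in Mll5+/- and 241 ± 31.8 CPM in WT libraries (SD, n = 3 each), without overlap (log2 fold change -0.29, SE 0.193, edgeR unadjusted p = 0.165). Among the 14 shuttle and segregase genes, 0 had an unadjusted p under 0.05 (median 0.21), with Ubqln4, a ubiquilin shuttle, at a mean of 20.5 CPM in Mll5+/- and 11.7 CPM in WT libraries. The 7 genes of ubiquitin and its E1 enzymes had a median of 0.29 and 0 under an unadjusted p of 0.05. Of these, Uba7, the E1 enzyme of ISG15, averaged 17.04 CPM in Mll5+/- and 11.8 CPM in WT libraries, with overlap. Its highest value, 27.1 CPM, was in Mll5+/- replicate 3.

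The inducible subunits left out by the rule overlapped as well. Psmb8, which replaces Psmb5, had 5.80, 13.2 and 18.998 CPM in Mll5+/- and 20.4, 13.05 and 10.9 CPM in WT libraries (log2 fold change -0.23, SE 0.604), and Psmb9, which replaces Psmb6, had 28.2, 32.4 and 19.6 CPM in Mll5+/- and 15.1, 18.9 and 28.2 CPM in WT libraries (log2 fold change 0.37, SE 0.438). Of 10 genes of interferon-induced antigen processing, these 2 included, 0 had an unadjusted p under 0.05 in edgeR (median 0.15). The smallest p-values there were those of Erap1, a peptide-trimming protease, and Nlrc5, an activator of MHC class I genes, both with overlap. Erap1 had 35.3, 21.2 and 4.96 CPM in Mll5+/- (mean 20.5) and 34.2, 32.6 and 46.1 CPM in WT libraries (mean 37.6, edgeR unadjusted p = 0.199). Nlrc5 had 38.0, 99.9 and 24.4 CPM in Mll5+/- (mean 54.1) and 18.9, 42.3 and 36.2 CPM in WT libraries (mean 32.5, edgeR unadjusted p = 0.220).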

How the data were processed

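Counts per gene symbol in 6 libraries were deposited by the authors as whole numbers, 1 table with gene coordinates on mm39. The submitters' processing notes name STAR, StringTie, FastQC and DESeq2, without roles. Tool versions, how reads were counted and whether strand was used are unstated. Per the labels' protocols, cDNA was amplified by the SMART-seq method, so counts are not independent molecules and floors cover counting error only.

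Groups are the labelled genotypes. Genes were kept with filterByExpr (minimum count 10, total 15), which left 10832 of 11881. Genotypes were compared by the quasi-likelihood test of edgeR, with TMM scaling and robust fitting (edgeR 4.0.16, limma 3.58.1, DESeq2 1.42.0, R 4.3.3), two-sided, Benjamini-Hochberg adjusted over all tested genes, threshold 0.05. Standard errors and 95% intervals come from the coefficient and its F statistic. Log2 CPM used a prior count of 2. The script was tested on simulated data. Values over members carry no p. Values in each library are given for the catalytic genes, for the gene of smallest p and the most abundant gene of each class (chaperones as 1 class, the inhibitor left out), and for the 4 of largest within-genotype SD. In the related lists Nfe2l1, Nfe2l2 and the 2 genes of smallest p are named. Others were chosen after their values were seen. Psmb11, Paaf1, Maff and Pf4 were not analysed here. The result for 1 gene of the related lists is not reported here. Members, classes and lists were chosen with earlier results of these data known. Transcript lengths and shared 50-base stretches come from GENCODE M21 and promoter windows from RefSeq on GRCm38.p6, which held 38 of the 46 genes by symbol; no coordinates were moved between builds. Alternatives were DESeq2, limma-voom, DESeq2 size factors, total counts, other filters, another prior count and leaving out each library; 2 on shared sequence and 1 without Psmb10 were added after the data were seen.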

Additional observations from a re-analysis of the deposited data

How the results depend on the processing

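Under every alternative run, 0 of the 46 genes passed an adjusted p of 0.05. The count of members under an unadjusted p of 0.05 was 0 with all 6 libraries under each tool, scaling and filter, and 0 to 1 when a library was left out. The median log2 fold change of the members ran from 0.03 to 0.09 over tools, scalings and filters and from 0.02 to 0.08 over left-out libraries. The count of members without overlap was 1 without the low-count filter, where Psme1 overlapped. It was 0 without the 12 members sharing over 10% of their 50-base stretches, an outcome fixed by the removal: Psme1 (14.1%) and Psme2b (69.3%) are among the 12. With 5 libraries the count was 4 to 8, where separation is easier by construction. Over left-out libraries the class medians took both signs in the alpha ring (-0.37 to 0.24), beta ring (-0.31 to 0.29), base (-0.29 to 0.10), lid (-0.003 to 0.35) and base chaperones (-0.71 to 0.95). They stayed positive in the activators (0.15 to 0.23) and negative in the 20S assembly chaperones (-0.16 to -0.01). Except without Mll5+/- replicate 2, the activator median was the value of Psme1 itself, which ran from 0.14 to 0.23. The core minus the base and lid ran from -0.54 to 0.04 and the core minus the activators from -0.80 to -0.17 over left-out libraries. Without Psmb10 these were -0.07 and -0.35, the second chosen after seeing the data; with genes of at least 5 CPM they were -0.32 and -0.65. The median within-genotype SD ran from 0.46 to 0.56. The 5 process lists held 14, 14, 7, 14 and 10 tested genes, with some genes on 2 lists. Among them, 1 had an unadjusted p under 0.05 in edgeR, beside 2.88% of all tested genes. The count was 2 in DESeq2 (4.87% of all genes with a p) and 3 in limma-voom (3.55%). It was also 2 with DESeq2 size factors, with total counts and without a filter, and 1 to 5 with a library left out. For these settings the shares over all genes are not given. The cause of the changes was not tested. Psmb5 had a log2 fold change of -0.45 in limma-voom. Over left-out libraries it ran from -1.78 to 0.61 for Psmb5, -0.39 to 0.55 for Psmb6, -1.28 to 0.17 for Psmb10, -0.014 to 0.28 for Psmd7, -0.21 to 0.19 for Psmg2 and -0.40 to 1.80 for Psmd13; it took both signs for Psmf1 too, the inhibitor (-0.31 to 1.30). No paired analysis was possible because the labels give no numbers shared between genotypes. The biological coefficient of variation was 80.4%, with 3 mice a genotype.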
